A study of Mus musculus with 3 samples.

Results

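Glutamate and GABA receptor genes were 41 protein-coding autosomal genes of the mouse RefSeq annotation (mm10), taken by symbol. The symbols begin with Gabr, begin with Gria, Grik or Grin and a digit, or are Grid or Grm followed by a single digit. These genes stood among 20661 autosomal protein-coding genes, and their 82 gene ends among 41322. The set held 3 AMPA, 5 kainate, 2 delta and 7 NMDA receptor subunits, 8 metabotropic glutamate receptors, and 5 alpha, 3 beta, 3 gamma, 2 other (Gabrd and Gabrp) and 3 rho subunits of GABA-A receptors. The 4 X-linked matches (Gria3, Gabra3, Gabre and Gabrq) and 1 non-coding match (Grin1os) were left out. Membership of each gene rested on its symbol alone, but the set itself was chosen with earlier results of these data known.

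Ionotropic glutamate receptors are cation channels that open when glutamate binds, and the AMPA, kainate and NMDA classes carry most fast excitatory transmission in the brain. Metabotropic glutamate receptors act more slowly through G proteins, and GABA-A receptors are chloride channels assembled from alpha, beta and a further subunit that carry fast inhibition. These genes are known mainly from neurons, and in colon tumours DNA methylation is often gained at CpG-dense promoters of genes that the epithelium does not use.

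The assay was MBD-seq, where beads carrying a protein domain that binds methylated CpG retrieve the methylated fragments of sheared genomic DNA for sequencing, and the samples were proximal colon organoids (epithelial cultures grown in Matrigel) from male mice about 40 days old. All organoids carried 1 Cre-activable Braf V600E allele (Braf+/LSL), which codes for a kinase that is always active once Cre has acted. The EV library came from organoids that had received only the empty lentiviral backbone and were grown in full medium with Wnt3a, R-Spondin, Noggin and EGF. The 2 Braf libraries came from organoids with the activated allele, 1 in the same full medium and 1 selected in Base medium, which lacks the stem-cell niche factors. The cultures were 5 months old and were then grown for 3 weeks in the stated medium. The sources used here do not state whether the libraries came from organoids of 1 mouse or of several. With 1 library per condition, differences could not be checked against replicates, and p-values were not computed. All 3 comparisons share these libraries and are not independent of each other.

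Values below are normalised coverage, the mean number of read overlaps per 200-bp bin times each library's scaling step, over the bins within 1 kb of a gene end. The libraries held an estimated 5041726 reads (EV), 8648828 reads (Braf full medium) and 5985362 reads (Braf Base medium). The Braf full medium library stood apart: 43.3% of its bins held no read, against 87.2% in EV and 83.0% in Braf Base medium, and its coverage outside methylated tiles was 0.0515 against 0.0105 and 0.0106. Intervals given with folds are 95% Clopper-Pearson (exact binomial) intervals from the estimated reads, and cover counting error only, since PCR reads without molecular identifiers are not independent molecules. A library without a read in a window was set to 3 reads, and the fold is then a lower bound. Each sample pooled many cells, so more methylated cells and more methylation per cell cannot be told apart. At the ends of 12 colon epithelium marker genes coverage reached at most 0.201 (EV), 0.241 (Braf full medium) and 0.141 (Braf Base medium), and these data hold no expression values.

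The promoter runs below show what kind of sequence lay at these genes. They are the 250 bases before the RefSeq start (GRCm38.p6, the assembly behind mm10), 5′ to 3′ on the strand of the gene, with CG dinucleotides, the sites of mammalian DNA methylation, in capitals. Grin1 (chr2:25319188-25319437, minus strand) and Grm8 (chr6:28135147-28135396, minus strand) are CpG-dense with 27 and 29 CG, had no read in EV, and parted in the Braf libraries. Gabra2 (chr5:71095850-71096099, minus strand) has 18 CG and was not called in any comparison. Gabrr1 (chr4:33132306-33132555, plus strand), with 7 CG, was among the few ends that lost coverage. These runs were chosen among starts that lie at the outermost gene end with no other annotated gene over them.
Grin1: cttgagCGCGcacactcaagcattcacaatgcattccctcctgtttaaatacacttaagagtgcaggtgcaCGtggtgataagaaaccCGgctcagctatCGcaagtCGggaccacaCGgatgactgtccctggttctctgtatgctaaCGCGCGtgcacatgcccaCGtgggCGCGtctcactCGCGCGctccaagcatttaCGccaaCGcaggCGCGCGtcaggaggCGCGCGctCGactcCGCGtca
Grm8: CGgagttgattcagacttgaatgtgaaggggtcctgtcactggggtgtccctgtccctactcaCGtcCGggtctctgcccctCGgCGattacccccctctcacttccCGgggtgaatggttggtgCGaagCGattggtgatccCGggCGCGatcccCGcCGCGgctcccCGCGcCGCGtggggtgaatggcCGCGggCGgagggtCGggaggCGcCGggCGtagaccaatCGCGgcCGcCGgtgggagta
Gabra2: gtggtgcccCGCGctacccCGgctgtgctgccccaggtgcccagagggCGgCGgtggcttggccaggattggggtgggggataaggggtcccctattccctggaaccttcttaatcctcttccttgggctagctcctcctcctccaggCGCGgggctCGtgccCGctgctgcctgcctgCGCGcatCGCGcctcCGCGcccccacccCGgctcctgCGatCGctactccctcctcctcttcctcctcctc
Gabrr1: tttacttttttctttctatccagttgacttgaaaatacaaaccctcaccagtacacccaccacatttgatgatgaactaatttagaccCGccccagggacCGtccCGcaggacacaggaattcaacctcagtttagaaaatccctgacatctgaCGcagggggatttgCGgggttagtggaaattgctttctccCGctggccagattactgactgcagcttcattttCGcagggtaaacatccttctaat

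A gene end was called gained or lost where the log2 ratio of the 2 libraries, with the pooled mean coverage of 0.0597 added to both, reached 1 in size and the higher library reached 0.119, which is 2 times that mean. With activated Braf in full medium against EV, 15 of the 41 receptor genes gained coverage at an end (36.6%, against 8.55% of all genes) and 0 lost it (1.13% of all genes). In Base medium against full medium, both with activated Braf, 9 gained (21.95%, against 2.02%) and 5 lost (12.2%, against 5.4%). In Braf Base medium against EV, 16 gained (39.0%, against 6.19%) and 2 lost (4.88%, against 2.61%). The shares of receptor genes gained were thus above the shares of all genes in each comparison. Of the 82 ends, 30 reached the minimum in at least 1 library (36.6%, against 18.3% of all ends), and only such ends could be called. In all, 24 ends of 22 genes were called at least once. Counted by end, 16, 9 and 16 receptor gene ends were gained in the 3 comparisons (4.63%, 1.03% and 3.23% of all ends), and 0, 5 and 2 were lost (0.603%, 2.94% and 1.4%).

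The median log2 ratio over all 82 receptor gene ends was 0.54 in Braf full medium against EV, below the 0.66 of gene ends genome-wide. In Base against full medium these medians were -0.32 and -0.61, and in Braf Base medium against EV 0.08 and 0.00. The receptor median was thus slightly lower than that of all ends in full medium against EV, and less negative in Base against full medium. Coverage outside methylated tiles was also highest in Braf full medium, at 0.0515 against 0.0105 (EV) and 0.0106 (Braf Base medium). With background subtracted, the median of all ends in full medium against EV was 0. These medians therefore do not show a rise or fall of methylation at the typical end. The calls lay in a minority of ends. Scaling the libraries to equal totals changed the split of calls in the comparisons that involve Braf full medium. It gave 4 genes gained (9.76%, against 3.81% of all genes) and 4 lost (9.76%, against 4.28%) in full medium against EV. In Base against full medium it gave 18 gained (43.9%, against 9.54% of all genes) and 0 lost (0.992% of all genes). In Braf Base medium against EV it left the numbers within 1.5 times those above.

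**Figure D1:**
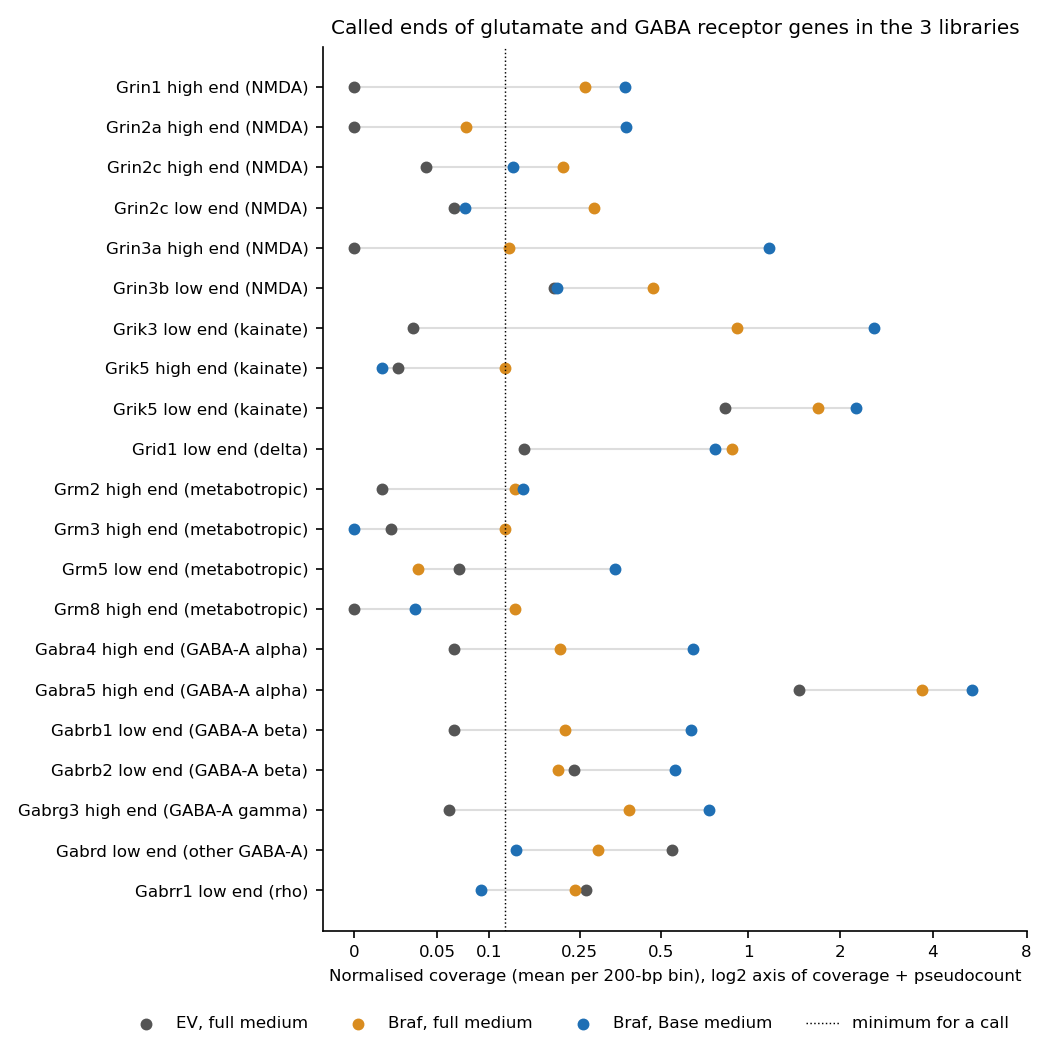
Normalised coverage (log2 axis of coverage plus pseudocount) at 21 of the 24 called receptor gene ends, 1 point for each of the 3 libraries, with the minimum for a call at 0.119 as a dotted line. Braf Base medium lies highest at most GABA-A alpha, beta and gamma ends, and lowest at Gabrd and Gabrr1.

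Among NMDA receptor genes, 4 of 7 gained coverage in Braf full medium against EV (8.55% of all genes) and 3 of 7 in Braf Base medium against EV (6.19%). Between Base and full medium 2 of 7 gained (2.02%) and 2 of 7 lost (5.4%). Grin1, which codes for the GluN1 subunit that every NMDA receptor contains, had coverage of 0 in EV, 0.263 with Braf in full medium and 0.370 with Braf in Base medium at its start (position 25319187 of chromosome 2). Both Braf libraries lay above EV, at least 7.72-fold and at least 10.9-fold higher. Grin3a, which codes for a glycine-binding subunit, had 0, 0.125 and 1.17 at its high-coordinate end (chromosome 4, position 49846023). That end was at least 3.67-fold higher in Braf full medium than in EV, and 9.37-fold higher again in Base than in full medium (95% interval 5.02 to 17.9). The full medium value lay just above the minimum. Its gain over EV was not called under 8 of 11 other ways of processing, among them equal totals and background subtracted. Grin2a, which codes for the GluN2A subunit of mature synapses, had 0, 0.0757 and 0.374 (chromosome 16, position 9996083). Here full medium did not reach the minimum, and the call lay in Base medium, 4.94-fold above full medium (2.23 to 13.1) and at least 10.99-fold above EV.

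At Grin2c and Grin3b the Braf full medium library was highest and Base medium returned toward EV. Grin2c codes for a subunit best known from the cerebellum, and its end side (chromosome 11, position 115249169) held 0.0639, 0.285 and 0.0741 in EV, Braf full and Braf Base medium. The gain in full medium was 4.46-fold (1.66 to 12.2), and Base medium was 3.85-fold below full medium. Its start side (position 115267297) held 0.0411, 0.214 and 0.131, a 5.21-fold gain in full medium against EV (1.59 to 19.1). The windows also take in an end of Tmem104 and of Fdxr. Grin3b, the second glycine-binding subunit gene, held 0.196, 0.468 and 0.202 at its start, 2.38-fold higher in full medium than in EV (1.34 to 4.49) and 2.31-fold lower in Base than in full medium. That window takes in an end of Wdr18. The other end of Grin3b was the most covered receptor gene end in each library, at 6.56, 6.31 and 7.69, and was not called. An end of Tmem259 lies in the same window.

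By the log2 ratio, the kainate receptor genes held the widest difference of the set. Grik3, which codes for a low-affinity kainate subunit, had coverage of 0.0319 in EV, 0.918 with Braf in full medium and 2.59 with Braf in Base medium at its start (chromosome 4, position 125490259), from an estimated 3, 85 and 310 reads. The libraries were ordered EV, full medium, Base medium at every step, with folds of 28.7 (8.90 to 133) for full medium against EV and 2.82 (2.22 to 3.64) for Base against full medium. Base medium against EV was 81.1-fold (25.8 to 371), a log2 ratio of 4.85. Grik5, a high-affinity kainate subunit gene, was already covered in EV at its end side (chromosome 7, position 25009849), with 0.835, 1.70 and 2.27, and Base medium was 2.72-fold above EV (2.09 to 3.55). At its outermost start-side end (position 25075694, beside Zfp574) it held 0.0228, 0.120 and 0.0135 from 2, 11 and 2 reads. That end was called gained in full medium, 5.27-fold (1.14 to 48.5), and lost in Base medium, 8.93-fold lower. Both calls rest on these few reads and on a level just above the minimum. Around the RefSeq start of Grik5, 3325 bases further inside, coverage was 0.935, 1.20 and 1.64, with no call in any comparison.

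Grid1 codes for a delta receptor subunit, a class whose products bind cerebellins and organise synapses. Grid1 had 0.146 in EV, 0.882 with Braf in full medium and 0.768 with Braf in Base medium at its low-coordinate end (chromosome 14, position 34820003). The 2 Braf libraries lay above EV by 6.04-fold (3.32 to 11.7) and 5.26-fold (2.90 to 10.2) and differed little from each other.

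The 3 AMPA receptor genes, which code for the main channels of fast excitation, had no called end. Coverage at their 6 ends was at most 0.0183 in EV, 0.0356 with Braf in full medium and 0.0236 with Braf in Base medium, below the minimum in all libraries. The RefSeq start of Gria2, which lies 1392 bases inside the outermost gene end, is taken up with the promoters below.

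Of the 8 metabotropic receptor genes, 3 gained coverage in Braf full medium against EV (8.55% of all genes) and 2 in Braf Base medium against EV (6.19%). Between Base and full medium 1 gained (2.02%) and 2 lost (5.4%). Grm5, which codes for a receptor coupled to phospholipase C, held 0.0684, 0.0356 and 0.340 at its low-coordinate end (chromosome 7, position 87583981). Only Base medium was above the minimum, 4.97-fold over EV (2.13 to 14.5) and 9.55-fold over full medium (3.38 to 53.5). The other called metabotropic genes lower cyclic AMP when active, and each lay close to the minimum. Grm2 held 0.0137, 0.134 and 0.145 at its start (chromosome 9, position 106656109), 9.76-fold (1.69 to 487) and 10.6-fold (1.96 to 523) over EV in full and Base medium. Grm3 held 0.0183, 0.120 and 0 at its start (chromosome 5, position 9725352), 6.59-fold higher in full medium than in EV (1.14 to 48.5) and at least 4.80-fold lower in Base than in full medium. Grm8 held 0, 0.134 and 0.0337 at its start (chromosome 6, position 28135146), at least 3.93-fold higher in full medium than in EV, and 3.97-fold lower in Base than in full medium. Grm3 and Grm8 held coverage above the minimum in Braf full medium alone, the library with the highest background. Neither their gains nor their losses were called with background subtracted or with equal totals, and in all the Grm3 calls were missing under 7 and the Grm8 calls under 6 of 11 other ways of processing. Grm7, by contrast, was covered in every library at its start, with 1.37, 1.35 and 1.80, and was not called.

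GABA-A receptor genes lie in clusters, and windows of neighbouring genes can overlap. Gabra5 codes for an alpha subunit found largely outside synapses. At its start side (chromosome 7, position 57591016) coverage was 1.47 in EV, 3.69 with Braf in full medium and 5.36 with Braf in Base medium. Both Braf libraries were above EV, by 2.51-fold (2.04 to 3.09) and 3.65-fold (3.01 to 4.43). The gain in full medium was not called under 3 of 11 other ways of processing, among them equal totals and local background divided out. Gabra4, another alpha subunit gene, and Gabrb1, a beta subunit gene, have ends 387 bases apart on chromosome 5. At the Gabra4 end (position 71658308) coverage was 0.0639, 0.209 and 0.647, and at the Gabrb1 end (position 71657921) it was 0.0639, 0.218 and 0.637. The Gabra4 window rose 3.28-fold from EV to full medium (1.15 to 9.20) and 3.09-fold from full to Base medium (1.88 to 5.50), and stood 10.1-fold over EV in Base medium (4.15 to 26.6). With receptor genes that share a called window counted as 1 gene, 13, 8 and 14 genes were gained in full medium against EV, Base against full medium and Base medium against EV.

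Further GABA-A genes were highest in Base medium. Gabrb2, a beta subunit gene of the adult brain, held 0.237, 0.205 and 0.562 at its start (chromosome 11, position 42419515). All 3 libraries were above the minimum there, and Base medium was highest, 2.37-fold over EV (1.42 to 4.04) and 2.74-fold over full medium (1.62 to 4.82). Around the RefSeq start of Gabrb2 925 bases further inside, coverage was 0.00913, 0.0624 and 0.407, so that only Base medium was above the minimum. Gabrg3, a gamma subunit gene, held 0.0593, 0.383 and 0.734 at its start (chromosome 7, position 57387215), 6.46-fold (2.67 to 22.3) and 12.4-fold (5.35 to 40.9) over EV in full and Base medium. Its end side held 0.438, 0.312 and 0.313 and was not called.

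Only 2 receptor genes lost coverage in Braf Base medium against EV. Gabrd, which codes for the delta subunit of GABA-A receptors outside synapses, held 0.548, 0.294 and 0.135 at its low-coordinate end (chromosome 4, position 155384979), a 4.06-fold fall from EV to Base medium (ratio 0.246, 0.130 to 0.440). Gabrr1, which codes for a rho subunit known from the retina, held 0.265, 0.241 and 0.0909 at its start (chromosome 4, position 33132556), a 2.91-fold fall (ratio 0.344, 0.155 to 0.752). The Gabrr1 loss was not called under 6 of 11 other ways of processing, among them equal median of enriched tiles and local background divided out. In each library the highest Gabrr1 bin was centred 944 bp inside the gene, near the edge of the window. No other rho gene, and not Gabrp, had a called end.

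**Figure D2:**
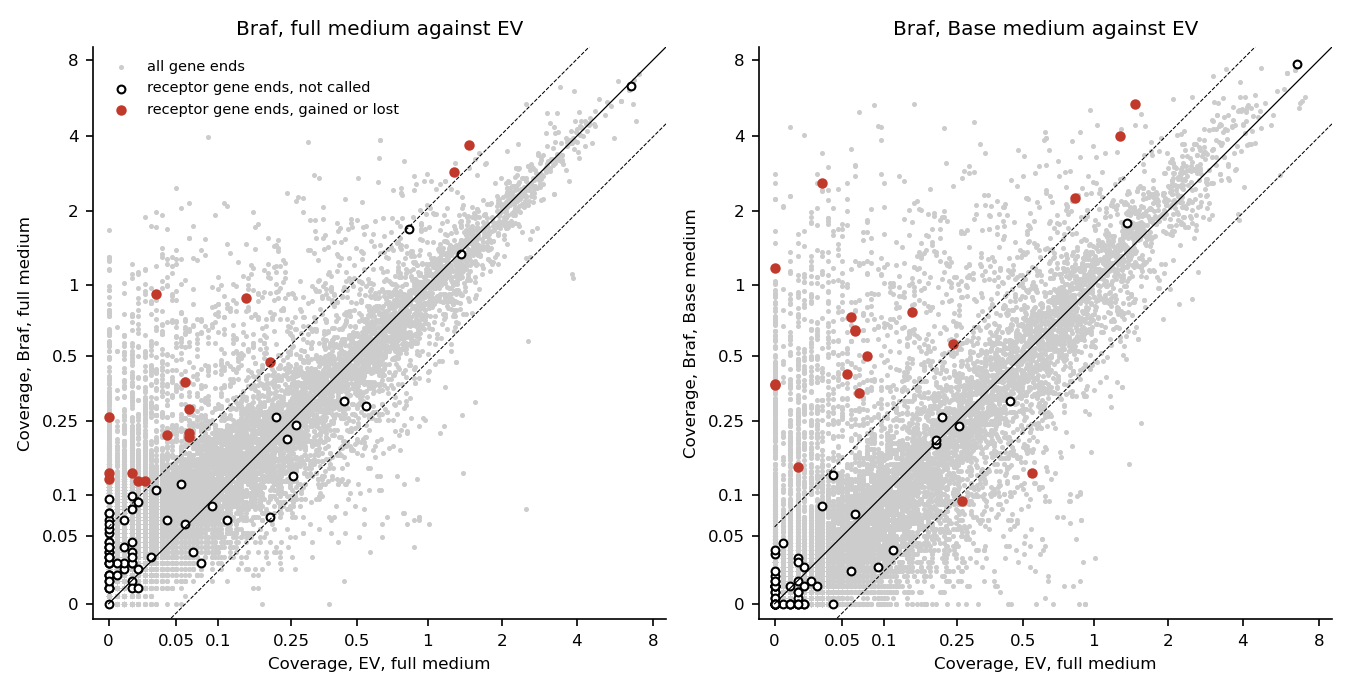
Coverage at every gene end (grey) and at receptor gene ends (open, not called; red, called), Braf full medium against EV on the left and Braf Base medium against EV on the right, on log2 axes of coverage plus pseudocount, with dashed lines at a log2 ratio of 1. Red points above the upper line number 16 in each panel, and 2 lie below the lower line on the right.

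The 58 ends without a call had medians of 0.00456 in EV, 0.0356 with Braf in full medium and 0.00842 with Braf in Base medium. Of these, 5 were at or above the minimum in all 3 libraries, among them the Grin3b, Grm7 and Gabrg3 ends given above and the start of Gabra2 (0.256, 0.129 and 0.236). A total of 52 ends stayed below it everywhere and so could not be called, which does not show that their coverage was equal. Receptor gene ends without any read overlap numbered 32 (EV), 1 (Braf full medium) and 23 (Braf Base medium).

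Background coverage was highest in Braf full medium, where several called ends lay just above the minimum. With each library's background coverage subtracted, 8 receptor genes were gained in full medium against EV (19.5%, against 4.8% of all genes), and 7 of the 16 gained ends were no longer called. With equal totals, 12 of the 16 were no longer called. Of these 16 ends, those of Grid1 and Grik3 were called under each of the 11 other ways of processing compared. Of the 16 ends gained in Braf Base medium against EV, 10 were called under all of them, among them those of Grin1, Grin2a, Grin3a, Grik3, Grid1, Gabra4, Gabrb1 and Gabrg3. In Base against full medium, 3 gains, among them those of Grin3a and Grm5, were called under all 11, and none of the 5 losses was. All 5 of those losses were no longer called with equal totals.

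**Figure D3:**
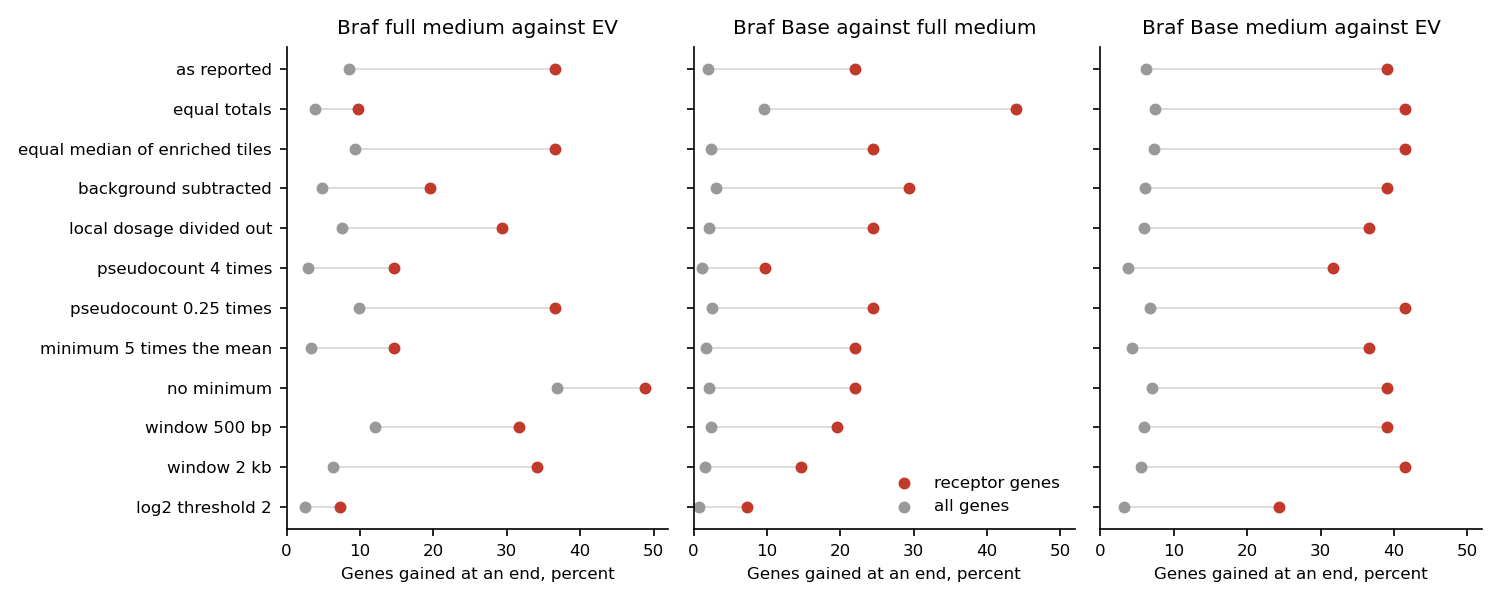
Share of receptor genes (red) and of all genes (grey) gained at an end, in percent, in the 3 comparisons and under each way of processing. The receptor share is 9.76% with equal totals in Braf full medium against EV and 24.4% at a log2 threshold of 2 in Braf Base medium against EV, and it exceeds the share of all genes at each setting.

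Gains lay on the start side of the genes more than on the end side. For the 27 receptor genes with a RefSeq start the strand is known, and 12 of their 27 start-side ends were gained in Braf full medium against EV (6.56% of all start-side ends), against 1 of 27 end-side ends (2.56% of all). In Base against full medium these counts were 4 (background 1.8%) and 0 (0.128%), and in Braf Base medium against EV 8 (5.2%) and 1 (0.954%). The median log2 ratio of the start-side ends was 1.03 in full medium against EV (0.74 over all start sides), and of the end-side ends 0.38 (0.59 over all end sides). In Base against full medium these medians were -0.21 (-0.67 over all start sides) and -0.38 (-0.58 over all end sides). In Braf Base medium against EV they were 0.29 (0.00) and 0.00 (0.00). The side of the other 28 ends is not known here, and 3, 5 and 7 of them were gained in the 3 comparisons.

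At most of these windows the coverage formed a peak at or just inside the gene end. At Grik3 the highest bin held 0.1004 in EV, 2.89 with Braf in full medium and 5.04 with Braf in Base medium, centred 241, 441 and 241 bp inside the gene. The Grin1 peak spanned the start itself, whereas Grin3a coverage in Base medium rose from the gene end inward to the edge of the window.

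**Figure D4:**
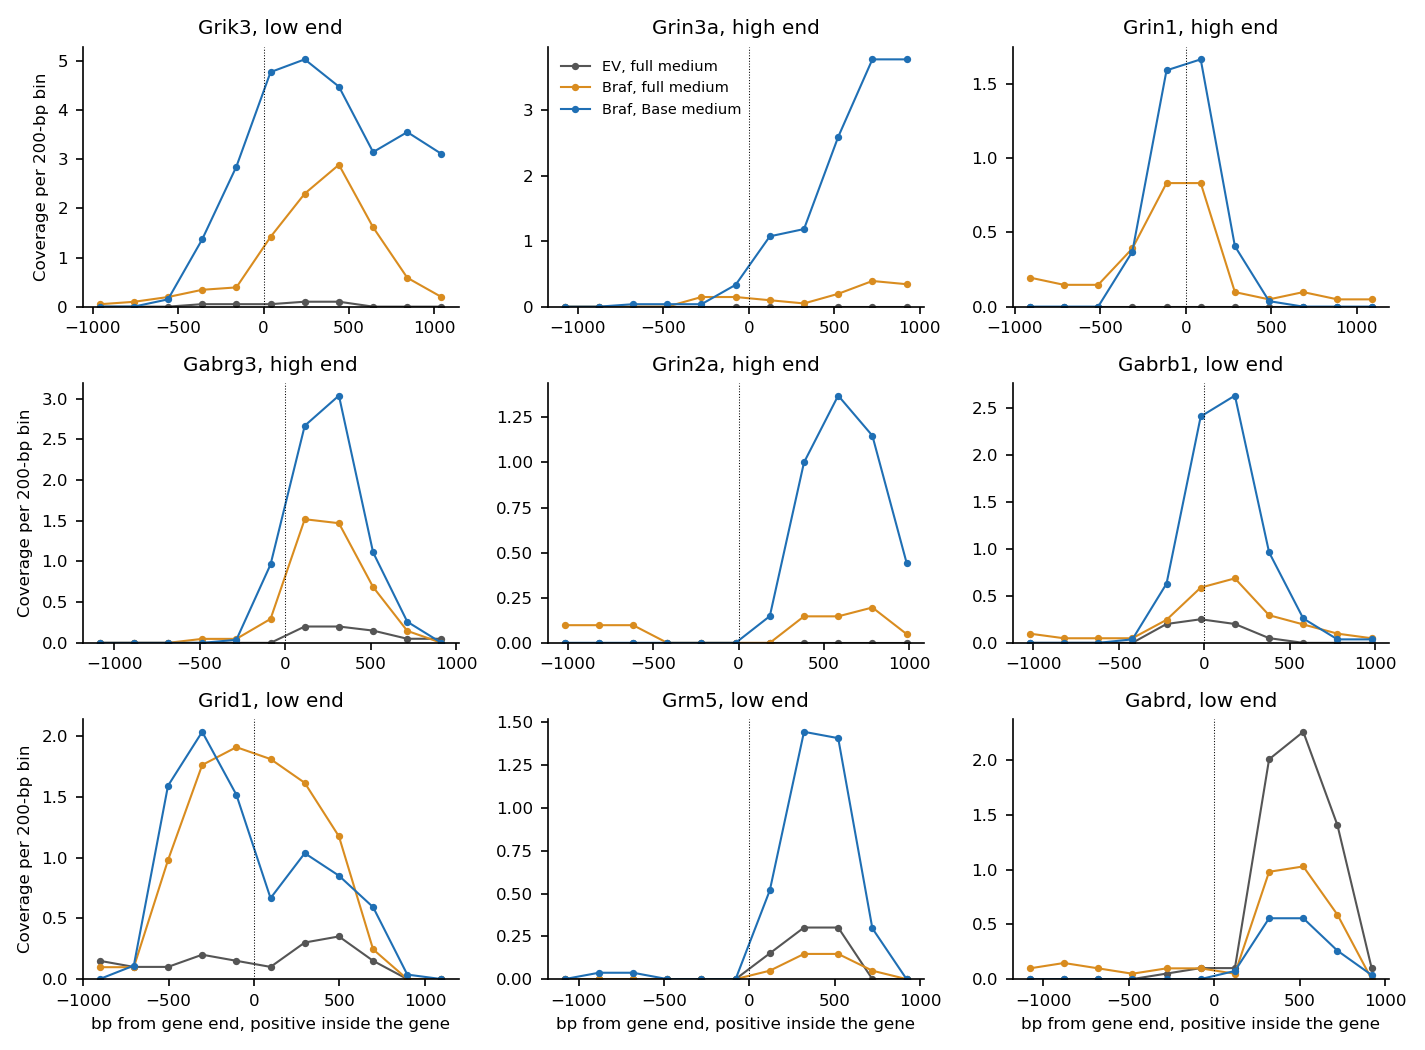
Coverage in each 200-bp bin (vertical axis, linear, own scale per panel) by distance from the gene end in bp, positive inside the gene, at 9 called ends in the 3 libraries. The Braf Base medium peak exceeds the others at Grik3, Grin3a, Grin1, Gabrg3, Grin2a, Gabrb1 and Grm5. At Grid1 it does so only slightly (2.04 against 1.91 in Braf full medium). The EV peak is highest at Gabrd.

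Because the outermost gene end can lie away from a promoter, coverage was also taken around the 33 RefSeq starts of these 27 genes. Of them, 10 starts were CpG-rich, defined as 20 or more CG in the 300 bases from 250 before to 50 after the start (30.3%, against 37.1% of all starts). The pattern CG, the same on both strands, occurred in all 33 of these promoters and in 95.6% of all promoters of that length. Of the 10 CpG-rich starts, 7 were gained in Braf full medium against EV (8.12% of all CpG-rich starts), 2 in Base against full medium (3.36%) and 6 in Braf Base medium against EV (8.07%). Of the 23 other starts, 5 (6.02% of all such starts), 4 (1.35%) and 5 (4.08%) were gained. Starts of the same gene were counted apart here, and Gabrb2 starts with overlapping windows entered the last 2 counts more than once. Median coverage of the CpG-rich receptor starts was 0.0228 in EV, 0.174 in full medium and 0.212 in Base medium, whereas over all CpG-rich starts it was 0.00456, 0.0624 and 0.00674. Counted by gene, 11 receptor genes were gained at a RefSeq start in full medium against EV (7.47% of all genes with one), 5 in Base against full medium (2.17%) and 9 in Braf Base medium against EV (5.95%). Losses there numbered 0 (0.82%), 3 (3.99%) and 1 (1.62%).

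Starts with similar CG content differed from each other. Grik3, with 50 CG in 300 bases, held 0.0319 in EV, 0.931 with Braf in full medium and 2.92 with Braf in Base medium. Grik4, another high-affinity kainate subunit gene, has 42 CG and held 0.0137, 0.0802 and 0.0269, with no call. Grin1 and Grm8, printed above, each have 33 CG in 300 bases, and only Grin1 was above the minimum in Base medium. Grik2 (26 CG), the kainate subunit gene most widely expressed in the forebrain, held 0.265, 0.690 and 1.14 at a start 1407 bases inside its outermost end, and was gained in both Braf libraries against EV. Gria2 (26 CG), the subunit gene that sets calcium permeability of AMPA receptors, held 0.00913, 0.107 and 0.189 at its start and was gained in Base medium. These 2 gains were missed by the windows at the outermost ends.

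**Figure D5:**
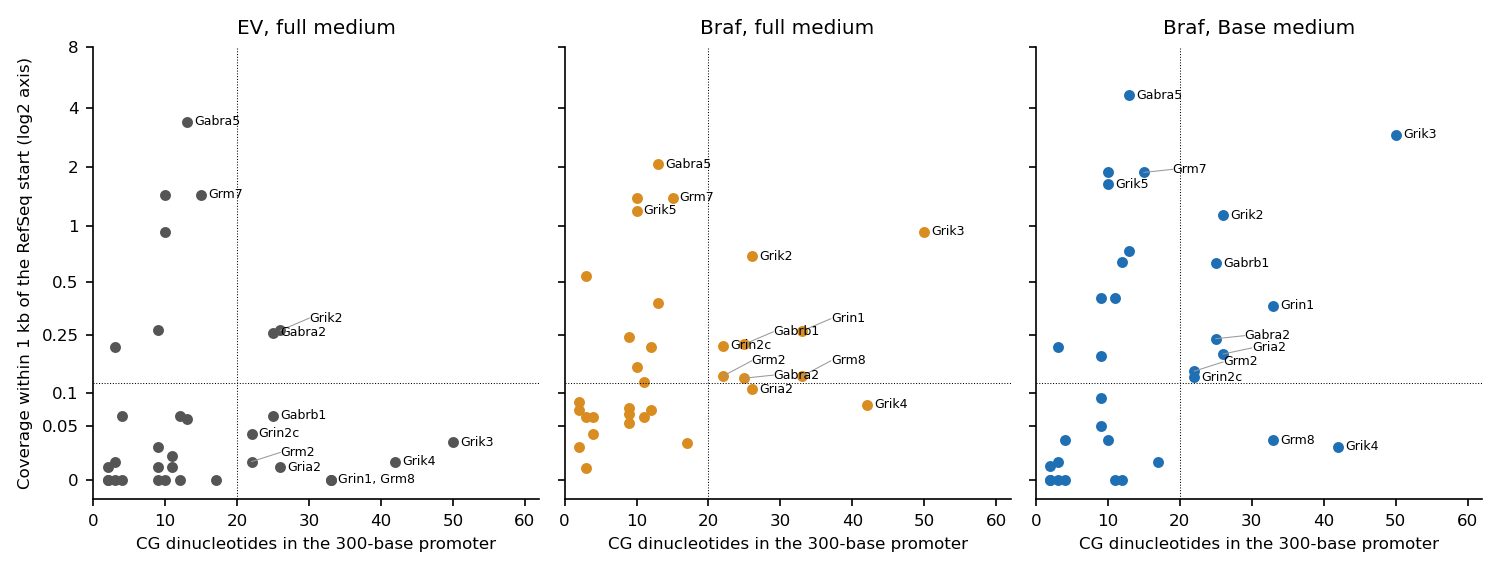
Coverage within 1 kb of each of 33 RefSeq starts (log2 axis of coverage plus pseudocount) by the number of CG dinucleotides in the 300-base promoter, 1 panel per library, with dotted lines at 20 CG and at the minimum for a call. Grik3 with 50 CG moves from 0.0319 in EV to 2.92 in Braf Base medium, while Grik4 with 42 CG stays below the minimum in all libraries.

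No gene body, taken as the bins farther than 1 kb from both ends, was called. All 41 bodies were measured, and 0 were gained or lost in any comparison, where 2%, 0.231% and 1.11% of all bodies were gained and 0.204%, 1.38% and 0.666% lost, in Braf full medium against EV, Base against full medium and Braf Base medium against EV. Median log2 ratios over the receptor gene bodies were 0.42, -0.47 and -0.07, and over all bodies 0.49, -0.52 and 0.00. The lowest ratios in full medium against EV were those of Grm2 (-0.40, from 1.09 to 0.813), Grm6 (-0.31) and Grm4 (-0.17), and the highest those of Grin1 (0.70), Grin2a (0.69) and Gria1 (0.69). In Braf Base medium against EV, Grm4 (-0.75, from 0.179 to 0.0827), Grm6 (-0.58) and Gabrr2 (-0.58) were lowest and Grin3b (0.33), Grin1 (0.32) and Gabra5 (0.19) highest. In Base against full medium the lowest were Gabrr2 (-0.84), Grik4 (-0.78) and Gabrr1 (-0.72), and the highest Grin3b (0.10), Grin2c (0.00) and Gabra5 (0.00).

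A finer view split the genes into 11649 tiles of 1 kb, each counted once, and took a tile as enriched at 5 times the mean coverage. Receptor genes held 211 enriched tiles in EV, 194 with Braf in full medium and 194 with Braf in Base medium. Tiles were gained in 29 places in Braf Base medium against EV (0.249%, against 0.308% of tiles of all genes) and lost in 46 (0.395%, against 0.521%). Of the 29 gained tiles, 26 had their centre within 2 kb of a protein-coding gene end (89.7%, against 60.4% of the gained tiles of all genes), and of the 46 lost tiles 4 did (8.70%, against 17.7%). In full medium against EV 18 tiles were gained (0.305% of all tiles were), 15 of them near an end (83.3%, against 52.8% for all genes). There 17 were lost (0.276% of all), 2 of them near an end (11.8%, against 22.2%). In Base against full medium 19 were gained (0.149% of all), 13 of them near an end (68.4%, against 55.7% for all genes). There 12 were lost (0.267% of all), 3 of them near an end (25.0%, against 27.1%). Gains thus lay mostly at gene ends and losses mostly inside the genes. Of the 211 receptor tiles enriched in EV, 21 were near an end (9.95%, against 19.9% for all genes). The 8.70% of lost tiles in Base medium against EV was close to that share.

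Some gained tiles lay beyond the windows. A tile inside Grin1 (chr2:25305001-25306000) held 0.0402, 0.686 and 1.04, and a tile of Grin2d (chr7:45833001-45834000), another GluN2 subunit gene, held 0.241, 1.74 and 1.59. In Grik1, a kainate subunit gene, the tile chr16:88289001-88290000 held 0, 0.176 and 0.333.

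Other genes of glutamate and GABA signalling, 66 autosomal genes from lists of auxiliary proteins, scaffolds, transporters, enzymes, GABA-B receptors and glycine receptors, were treated in the same way. Of these, 14 were gained and 0 lost in Braf full medium against EV (8.55% and 1.13% of all genes), 7 gained and 2 lost in Base against full medium (2.02% and 5.4%), and 15 gained and 1 lost in Braf Base medium against EV (6.19% and 2.61%). The gains in Base medium against EV, with the same 6.19% of all genes beside each list, lay among auxiliary and trafficking proteins (9 of 21), scaffolds (2 of 17), GABA-B receptors (1 of 2), glycine receptors (1 of 3), enzymes of synthesis and breakdown (1 of 8) and transporters (1 of 15). Grip1, a scaffold that binds AMPA receptors, held 0.00913 in EV, 0.116 in full medium and 2.31 in Base medium at its start. Its relative Grip2 held 0.0137, 0.646 and 0.670. Cbln1 and Cbln2 code for cerebellins, which bind the delta receptors. Cbln1 held 0.0365, 0.463 and 1.88 and Cbln2 held 0, 0.766 and 1.02, so that both were higher in the Braf libraries than in EV, as Grid1 was. Nptx2, which codes for a pentraxin that clusters AMPA receptors, held 0.155, 0.423 and 2.21. Glrb, the beta subunit gene of glycine receptors, held 0.00913, 0.365 and 0.872. Marker genes were counted in the same way, against the same shares of all genes. Of 12 epithelial markers, 1 was gained in Braf full medium against EV, 1 was lost in Base against full medium, and 0 were called in Braf Base medium against EV. Of 9 fibroblast and muscle markers, 1 was gained and 1 lost in full medium against EV, 0 were called in Base against full medium, and 2 were gained and 1 lost in Base medium against EV. Of 7 neural and glial markers, 2 were gained and 1 lost in full medium against EV, 1 was gained in Base against full medium, and 3 were gained in Base medium against EV. None of 6 immune markers was called in any comparison.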

How the data were processed

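DNA methylation was profiled by MBD-seq in 3 libraries, 1 per condition. Per the labels' protocols, DNA was sheared to 200 to 400 bp and sequenced as 50-bp single reads. The submitters' processing notes name Bowtie2 and mm10. The sources used here do not name the step that gave bin values. The authors deposited normalised log2 values for 200-bp bins of chromosomes 1 to 19, and X was not analysed here. Raised to a linear scale, each value was a shared floor plus a whole number of steps (tolerance 0.001 of a step), taken as read overlaps. Coverage is overlaps times the library's step. Read numbers were estimated from overlaps per read (2.49, 2.42 and 2.48 bins).

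Python 3.11.15, numpy 2.4.6, pandas 2.3.3, scipy 1.17.1 and matplotlib 3.10.9 were used, and the procedure was tested on simulated data. RefSeq promoters matched 27 of 41 genes. Receptor genes called in a comparison are named, up to 30, except a few that are counted but not reported here by name. Bodies are named by the 3 highest and 3 lowest ratios, pathway genes by the 6 largest. Promoters printed were narrowed, after their values were seen, to those clear of other genes. Members and lists were chosen with earlier results of these data known. Alternatives covered scaling, background, local dosage (background in 5-Mb segments), pseudocount, minimum, window and threshold. Windows at RefSeq starts, shared windows counted as 1 gene, and 1-kb tiles were added after seeing the data.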

Additional observations from a re-analysis of the deposited data

How the results depend on the processing

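No paired analysis was possible because each condition had 1 library and no replicate numbers are shared, and for the same reason no replicate could be left out. No result reversed. In Braf full medium against EV, 15 genes were gained and 0 lost; gains were 4 with equal totals, 8 with background subtracted, 6 with 4 times the pseudocount, 6 with a minimum of 5 times the mean and 3 at a log2 threshold of 2, and losses were 4, 2 and, with 0.25 times the pseudocount, 1. Bodies lost there numbered 1 with equal totals. In Base against full medium, 9 gains became 18 with equal totals, 4 with 4 times the pseudocount, 3 at the log2 threshold of 2 and 5 at RefSeq starts (chosen after seeing the data). The 5 losses became 0 with equal totals, 1 with background subtracted, 0 with 4 times the pseudocount, 1 with the higher minimum, 10 with no minimum, 2 with a 2 kb window, 0 at the log2 threshold of 2 and 3 at RefSeq starts. In Braf Base medium against EV, 16 gains became 10 at the log2 threshold of 2 and 9 at RefSeq starts. The 2 losses became 1 with equal median of enriched tiles, 1 with local dosage divided out, 1 with 4 times the pseudocount, 1 with the higher minimum, 0 at the log2 threshold of 2 and 1 at RefSeq starts. The causes were not tested, except that RefSeq starts cover 27 of the 41 genes. The median of all ends in Braf full medium against EV was 0.66, 0.44 with equal totals and 0 with background subtracted. No loss from EV could be called where EV was below 0.119.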

Other observations

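Losses of coverage inside receptor genes, away from their ends, gathered in a few genes in Braf Base medium against EV. Grm4, a group III metabotropic receptor gene, held 7 of the 46 lost tiles, and its enriched tiles numbered 10 in EV, 5 with Braf in full medium and 4 with Braf in Base medium. The tile with the largest fall, chr17:27473001-27474000, held 0.803 in EV, 0.0686 with Braf in full medium and 0.0148 with Braf in Base medium. Grik4 held 3 enriched tiles in EV and 0 in both Braf libraries, and its tile chr9:42520001-42521000 held 0.642, 0.00980 and 0.0741. In Gria4, an AMPA subunit gene, the tile chr9:4420001-4421000 held 0.502, 0.118 and 0.0741. In these tiles the fall was already present in Braf full medium. Grik3 held both directions, with 3 gained tiles around its start and 5 lost tiles elsewhere. At Gabrd, which lost coverage at an end, the background coverage of the surrounding 5-Mb segment relative to the genome was 2.34 (EV), 0.740 (Braf full medium) and 1.95 (Braf Base medium). With this local background divided out, the Gabrd loss was still called.

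The RefSeq start of Gabra5 that lies 80957 bases inside the gene was covered in every library, with 3.40 in EV, 2.07 with Braf in full medium and 4.61 with Braf in Base medium. It was called gained in Base against full medium, and Braf full medium was the lowest of the 3 libraries there.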
